A study of Mus musculus with 15 samples.

Results

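The glutathione peroxidases of the mouse are encoded by the genes Gpx1 to Gpx8, and these 8 genes are described here in the whole epididymis of mice with 0, 1 or 2 altered copies of Plag1. They were found by gene symbol among the 41591 NCBI Gene IDs of the deposited count table, and all 8 had enough counts to be tested. The groups were 5 knockout mice (KO, Plag1 -/-), 5 heterozygous mice (HET, Plag1 -/+) and 5 wild-type mice (WT), each giving 1 library. All were 7 weeks old, and the strain label of every sample reads Brown Swiss. The labels name no allele, litter, batch or collection day. Each whole epididymis was pulled apart and washed to clear sperm, and poly(A) RNA was sequenced with a stranded kit. Plag1 encodes a zinc finger transcription factor, and the comparison asks how transcript levels in the organ where sperm mature differ with its copies.

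Glutathione peroxidases reduce hydrogen peroxide and lipid hydroperoxides, with glutathione as the usual electron donor. In the mouse, GPX1 to GPX4 carry selenocysteine at the active site, read from a UGA codon, while GPX5 to GPX8 carry cysteine there. GPX1 acts in the cytosol and mitochondria, GPX2 is known from the gut epithelium, GPX3 is secreted and is the peroxidase of blood plasma, and GPX4 acts on phospholipid hydroperoxides in membranes and is also a structural protein of the sperm midpiece. GPX5 is secreted by the epididymal epithelium and binds to sperm, GPX6 is a close relative of GPX3 and GPX5 known from the olfactory epithelium, and GPX7 and GPX8 sit in the endoplasmic reticulum. The epididymis is known for this family because sperm membranes are rich in unsaturated fatty acids while peroxide is also used to cross-link sperm proteins.

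The codon that separates both kinds of enzyme is shown in the middle of a window of 57 coding bases, 5′ to 3′ on the coding strand, since the genes that changed fall on both sides of this divide. Capitals mark the active-site codon, which is TGA where GENCODE annotates a selenocysteine.
Gpx1: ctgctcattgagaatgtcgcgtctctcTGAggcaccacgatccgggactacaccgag
Gpx2: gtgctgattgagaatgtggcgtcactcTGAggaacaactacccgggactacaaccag
Gpx3: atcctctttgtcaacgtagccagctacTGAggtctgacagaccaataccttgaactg
Gpx4: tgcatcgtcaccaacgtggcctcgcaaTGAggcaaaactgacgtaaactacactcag
Gpx5: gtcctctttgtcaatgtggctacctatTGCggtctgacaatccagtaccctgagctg
Gpx6: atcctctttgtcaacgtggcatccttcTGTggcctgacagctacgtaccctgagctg
Gpx7: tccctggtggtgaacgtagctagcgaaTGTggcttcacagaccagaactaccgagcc
Gpx8: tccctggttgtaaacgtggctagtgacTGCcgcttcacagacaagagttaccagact
The windows come from the GENCODE transcripts of build GRCm38. The codon lies at chr11:54907256-54907258 on the plus strand in Gpx3, at chr13:21291336-21291338 on the minus strand in Gpx5 and at chr13:21313777-21313779 on the plus strand in Gpx6. It is codon 73 in all 3 of these genes. Over their whole coding sequences Gpx5 and Gpx6 were 71.0% identical, as were Gpx3 and Gpx5, and Gpx3 and Gpx6 were 70.7% identical. Gpx1 and Gpx2 shared 70.5% of bases, and no other pair of members passed 66.3%. The longest run of bases shared by 2 members was 40, between Gpx3 and Gpx5.

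Gpx4 has a far closer copy. Its pseudogene Gpx4-ps2 on the same chromosome (chr10:45875290-45876066, GRCm38.p6) matches its transcript at 98.0% of 757 aligned bases, with 1 unbroken run of 314 bases. The other annotated transcript of the pseudogene matches at 95.9% of 555 aligned bases. In the window above, the pseudogene differs from Gpx4 at 1 base.
Gpx4-ps2: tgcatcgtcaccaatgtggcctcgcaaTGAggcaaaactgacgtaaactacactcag
In the 15 libraries the counts assigned to the pseudogene were between 12.1% and 17.3% of those assigned to Gpx4. The division of reads between this pair is therefore uncertain, and the test of Gpx4 is also given with both counts added.

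Total counts were 25.3 to 42.0 M in KO libraries, 23.6 to 33.8 M in HET libraries and 20.3 to 27.8 M in WT libraries. The tissue label was checked with 12 epididymal markers. All 12 were tested and 0 passed in edgeR in KO against WT. Together they took between 50720 and 76760 CPM in every library, CPM being the count divided by the TMM-scaled library size in M. Plag1 itself had 8.18, 7.00, 7.91, 9.38 and 9.17 CPM in KO-694, KO-695, KO-696, KO-738 and KO-739, against 11.96, 13.05, 11.98, 12.47 and 14.03 CPM in WT-709, WT-719, WT-720, WT-723 and WT-726. In HET libraries it had between 8.12 and 11.8 CPM. All KO values lay below all WT values (log2 fold change -0.61 ± 0.10 (SE), edgeR quasi-likelihood test, adjusted p = 0.00491). The labels do not say which exons are altered, so a transcript that still gives reads does not test the genotype. A pair of KO libraries stood apart. KO-738 had 1.29% of its counts in ribosomal RNA genes, as had HET-693 with 1.30%, against at most 0.509% in the other 13 libraries. KO-739 had 4951 CPM in 10 skeletal muscle markers, while the other KO libraries had 40.8 to 57.8 CPM.

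Gpx5 dominated the family in every genotype. Levels can be set side by side between genes only per length, so CPM were divided by the kilobases of exon of each gene. On that scale Gpx5 averaged 16430 ± 2169 in KO, 17060 ± 1239 in HET and 14840 ± 1122 in WT (SD, n = 5 each). Gpx3 followed with 1156 ± 441 in KO, 1653 ± 199 in HET and 1841 ± 207 in WT. The ranges of Gpx5 and Gpx3 did not meet in any genotype, and neither gene's range met that of any other member.

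Below them lay a middle group of 3 genes whose order differed between genotypes. In WT libraries Gpx4 led with 102.7 to 121.8 CPM per kilobase, above Gpx8 with 86.2 to 98.2 and Gpx1 with 65.8 to 87.7. The ranges of Gpx8 and Gpx1 overlapped in WT. In KO libraries the mean of Gpx8 (106.3) was above that of Gpx4 (94.7), but the ranges of 87.9 to 134.3 for Gpx8 and 82.3 to 115.7 for Gpx4 overlapped, so these neighbours were not separated beyond their spread. Gpx6 came next with means of 62.6 in KO, 40.9 in HET and 32.0 in WT. Its KO range of 35.7 to 105.4 overlapped those of Gpx4, Gpx8 and Gpx1 in KO, while its WT range of 24.4 to 39.5 lay below all 3 of them in WT. Gpx7 was far lower with means of 5.92 in KO, 5.09 in HET and 4.64 in WT. Gpx2, the intestinal member, was close to the limit of counting, with 6 to 22 reads per library and means of 0.464 in KO, 0.301 in HET and 0.319 in WT.

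**Figure D1:**
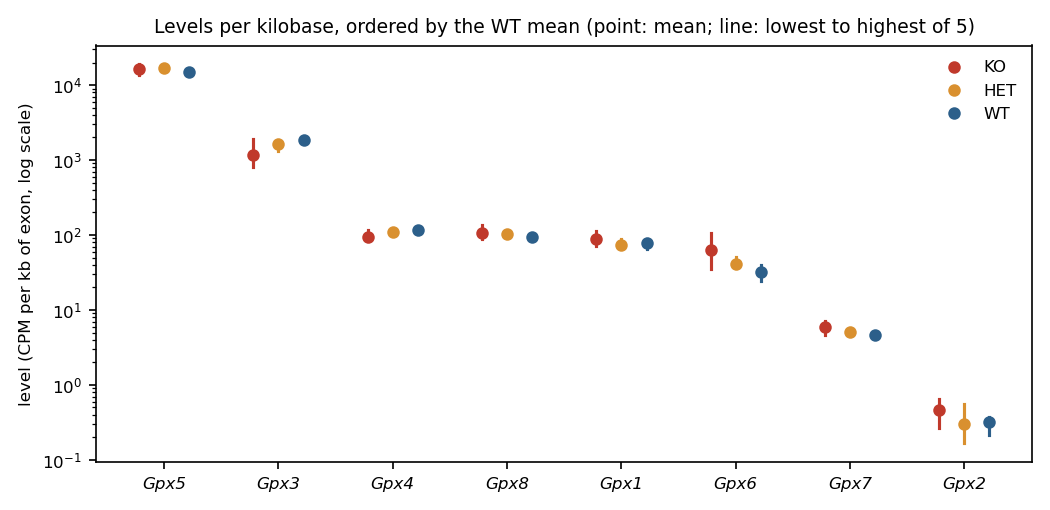
Levels of the 8 genes per kilobase of exon on a log axis, by genotype, ordered by the WT mean. Points are means and lines run from the lowest to the highest of 5 libraries. Gpx5 lies between 13480 and 18850 CPM per kilobase, Gpx3 between 806 and 2121, and Gpx2 below 1 in all 15 libraries.

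As a share of all reads, which also reflects transcript length, the family took 3.06% ± 0.37 of counts in KO, 3.13% ± 0.16 in HET and 2.85% ± 0.13 in WT. Gpx5 supplied 91.5% ± 2.9 of the family's CPM in KO, 89.4% ± 1.5 in HET and 86.9% ± 2.0 in WT. Gpx3 supplied 7.08% ± 2.83 in KO, 9.43% ± 1.44 in HET and 11.8% ± 1.9 in WT. In the single libraries Gpx3 made up 6.17%, 5.73%, 4.38%, 11.8% and 7.34% of the family in KO-694, KO-695, KO-696, KO-738 and KO-739, against 14.1%, 9.96%, 10.3%, 13.5% and 10.9% in WT-709, WT-719, WT-720, WT-723 and WT-726. KO-738 was inside the WT range and the other 4 KO libraries were below it. Gpx5 took more reads than any other gene in 4 of 5 KO libraries, 2 of 5 HET libraries and 0 of 5 WT libraries. In the others Crisp1, which encodes a secreted sperm-coating protein of the epididymis, took the most.

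Between KO and WT, 3 of the 8 members passed the test. Gpx3 and Gpx4 were lower in KO and Gpx6 was higher, while Gpx1, Gpx2, Gpx5, Gpx7 and Gpx8 did not pass. Over all 19388 genes tested, 6% passed in this comparison, 4.4% higher and 1.6% lower in KO. In no member did the 5 KO libraries and the 5 WT libraries separate fully, which they did for 4.21% of all genes. KO-738 lay inside the WT range for all 8 members and for 72.4% of all genes. The numbers of members inside the WT range were 0 in KO-694, 1 in KO-695, 2 in KO-696 and 1 in KO-739, and between 44.9% and 59.9% of all genes were inside it in these 4 libraries. Without KO-738, 4 members separated fully (Gpx3, Gpx4, Gpx6 and Gpx7), as did 12.8% of all genes. Without any 1 of the other KO libraries, 0 members separated fully, and 4.8% to 5.51% of all genes did. With KO-738 left out, the test called 5 members (Gpx8 as the fifth) and 2923 genes in place of 1163. Without both KO-738 and KO-739 it called 4 members (Gpx3, Gpx4, Gpx6 and Gpx7) and 3265 genes.

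**Figure D2:**
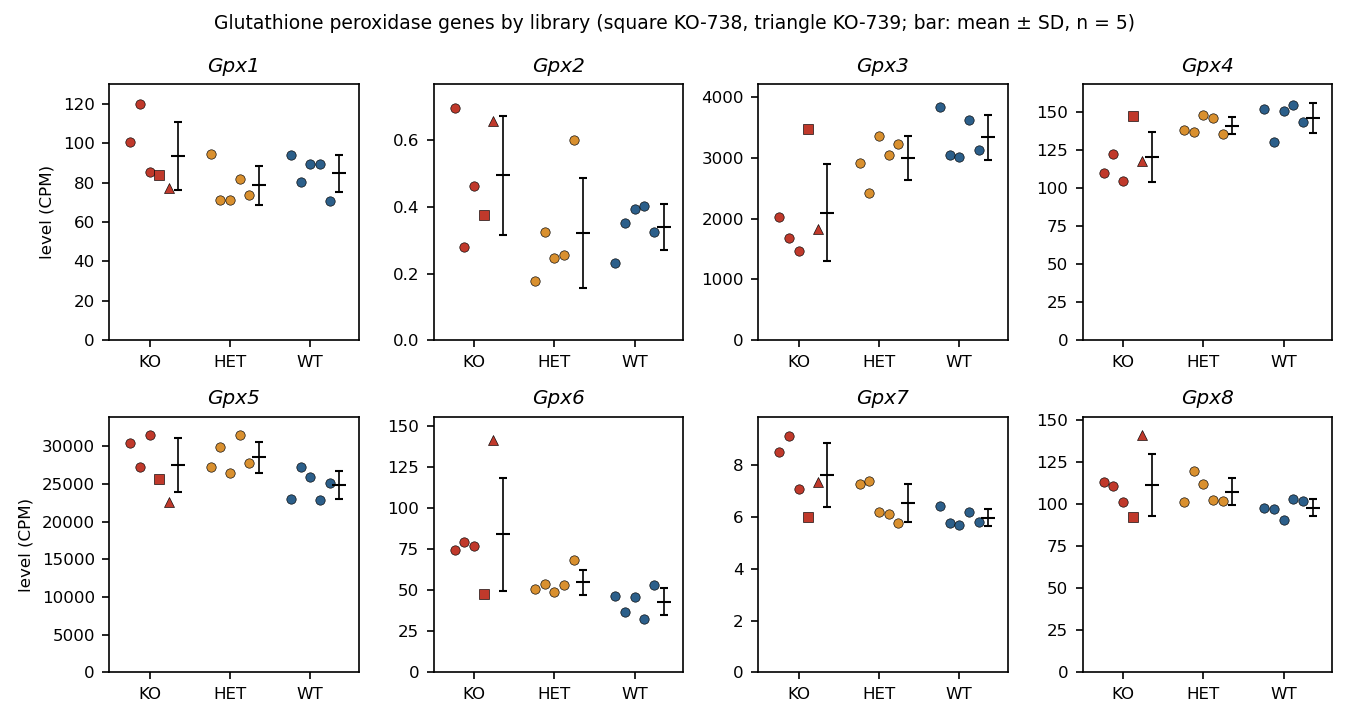
CPM of the 8 genes in each library, in KO, HET and WT from left to right, each panel with its own linear axis from 0. Points are libraries, with KO-738 as a square and KO-739 as a triangle, and bars are the mean ± SD of 5. The square lies among the WT points for all 8 genes, and the other 4 KO points of Gpx3 lie at 2029 CPM or less.

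Gpx3 encodes the secreted plasma peroxidase (NCBI Gene 14778, chr11:54902854-54910387, plus strand). It had 2029, 1684, 1462, 3478 and 1826 CPM in KO-694, KO-695, KO-696, KO-738 and KO-739, against 3845, 3051, 3023, 3634 and 3140 CPM in WT-709, WT-719, WT-720, WT-723 and WT-726. Of the KO libraries, 4 lay below every WT library, and KO-738 lay among the WT libraries. The KO mean was 2096 ± 800 CPM and the WT mean 3339 ± 376 CPM (SD, n = 5 each). The fitted ratio was 0.628 (log2 fold change -0.67 ± 0.19 (SE), edgeR adjusted p = 0.0455). Without KO-738 the log2 fold change was -0.93 (adjusted p = 0.000181). Leaving out any 1 of the other 14 libraries gave -0.70 to -0.57 with adjusted p between 0.0526 and 0.107, so the call at the threshold rested on all of them. In whole tissue, fewer cells of a type and less RNA per cell cannot be told apart, here and for every gene below.

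Gpx4 encodes the phospholipid hydroperoxidase (NCBI Gene 625249, chr10:80047166-80056439, plus strand). It had 109.9, 122.4, 104.7, 147.2 and 117.9 CPM in KO-694, KO-695, KO-696, KO-738 and KO-739, against 151.8, 130.6, 150.9, 154.9 and 143.2 CPM in WT-709, WT-719, WT-720, WT-723 and WT-726. The 4 lower KO libraries again lay below every WT library, and KO-738 lay among the WT libraries. The means were 120.4 ± 16.5 CPM in KO and 146.3 ± 9.8 CPM in WT (SD, n = 5 each), a smaller difference than that of Gpx3, with a ratio of 0.823 (log2 fold change -0.28 ± 0.08 (SE), edgeR adjusted p = 0.0406). With the counts of Gpx4-ps2 added, the log2 fold change was -0.29 ± 0.07 (adjusted p = 0.0316), and the pseudogene on its own had -0.39 ± 0.10 (adjusted p = 0.0313). The call was kept without KO-738 (-0.36, adjusted p = 0.00108) and without WT-719 (-0.32, adjusted p = 0.0463). Without any 1 of the other 13 libraries the adjusted p was between 0.0557 and 0.111.

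Gpx6 (NCBI Gene 75512, chr13:21295465-21319625, plus strand), the relative of GPX3 and GPX5 with cysteine at its active site, was higher in KO. It had 74.3, 79.3, 76.6, 47.9 and 141.2 CPM in KO-694, KO-695, KO-696, KO-738 and KO-739, against 46.4, 36.7, 45.8, 32.7 and 53.0 CPM in WT-709, WT-719, WT-720, WT-723 and WT-726. KO-739 was the highest library of all and KO-738 the only KO library inside the WT range. The means were 83.9 ± 34.5 CPM in KO and 42.9 ± 8.1 CPM in WT (SD, n = 5 each), a ratio of 1.95 (log2 fold change 0.97 ± 0.22 (SE), edgeR adjusted p = 0.0266). KO-739 is also the library with 4951 CPM of skeletal muscle markers, and without it the log2 fold change was 0.70 (adjusted p = 0.0328) and without KO-738 it was 1.12 (adjusted p = 0.00181). The call was lost without KO-696 (0.999, adjusted p = 0.0614), WT-709 (0.999, adjusted p = 0.0547), WT-719 (0.92, adjusted p = 0.0536) or WT-723 (0.88, adjusted p = 0.0654).

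Gpx5, the epididymal secretory peroxidase (NCBI Gene 14780, chr13:21286429-21292727, minus strand), lies 2737 bases from Gpx6 on the other strand. It had 30450, 27270, 31560, 25710 and 22570 CPM in KO-694, KO-695, KO-696, KO-738 and KO-739, against 23050, 27230, 25880, 22840 and 25180 CPM in WT-709, WT-719, WT-720, WT-723 and WT-726. The groups overlapped, and KO-739, the highest library for Gpx6, was the lowest of all 15 for Gpx5. The log2 fold change was 0.15 ± 0.10 (95% interval -0.06 to 0.36, edgeR adjusted p = 0.406). Per library, Gpx6 CPM were 0.318% ± 0.176 of Gpx5 CPM in KO and 0.173% ± 0.034 in WT, with 0.626% in KO-739. The log2 fold changes of the neighbouring pair thus stood at 0.97 for Gpx6 and 0.15 for Gpx5, with 95% intervals of 0.49 to 1.44 and -0.06 to 0.36. The difference between both genes was not tested.

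**Figure D3:**
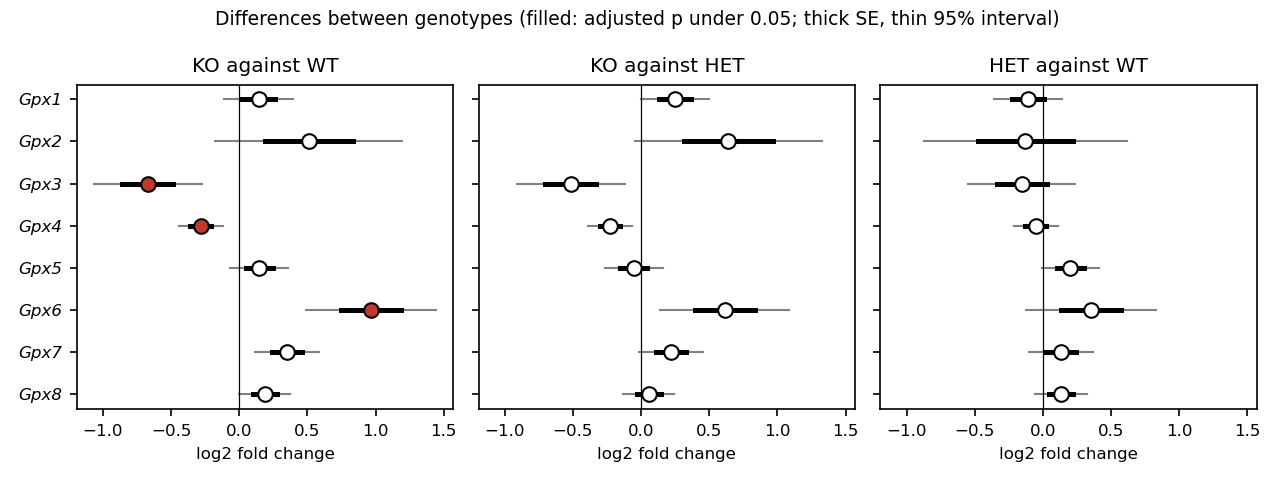
Log2 fold changes of the 8 genes for KO over WT, KO over HET and HET over WT, from the edgeR fit of 15 libraries. Points are estimates, thick lines 1 SE to each side and thin lines 95% intervals, and filled points have an adjusted p under 0.05. The filled points are Gpx3, Gpx4 and Gpx6 in KO against WT.

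The peroxidases of the endoplasmic reticulum did not pass the test, though both estimates were above 0. Gpx7 (NCBI Gene 67305, chr4:108400217-108406713, minus strand) had 8.52, 9.15, 7.07, 6.02 and 7.38 CPM in KO-694, KO-695, KO-696, KO-738 and KO-739, against 6.42, 5.77, 5.69, 6.22 and 5.83 CPM in WT-709, WT-719, WT-720, WT-723 and WT-726. KO-738 lay inside the WT range, and the other 4 KO libraries lay above it. The log2 fold change was 0.35 ± 0.11 (SE, edgeR adjusted p = 0.0716), and without KO-738 it was 0.43 (adjusted p = 0.012). DESeq2 (adjusted p = 0.0469) and limma voom (adjusted p = 0.0476) called Gpx7 with all libraries. Gpx8 (NCBI Gene 69590, chr13:113042757-113046430, minus strand) had 92.1 to 140.7 CPM in KO (median 110.6) and 90.3 to 102.9 CPM in WT (median 97.5), with KO-739 the highest. Its log2 fold change was 0.19 ± 0.09 (SE, edgeR adjusted p = 0.215). Without KO-738 that of Gpx8 was 0.25 (adjusted p = 0.0463), and without KO-739 it was 0.09 (adjusted p = 0.468).

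The remaining selenocysteine members did not pass either. Gpx1 (NCBI Gene 14775, chr9:108339080-108340342, plus strand) had 100.8, 120.0, 85.6, 84.1 and 77.2 CPM in KO-694, KO-695, KO-696, KO-738 and KO-739, against 94.0, 80.2, 89.7, 89.5 and 70.5 CPM in WT-709, WT-719, WT-720, WT-723 and WT-726. KO-694 and KO-695 lay above every WT library and the other 3 KO libraries inside the WT range, and the log2 fold change was 0.14 ± 0.12 (95% interval -0.11 to 0.39, edgeR adjusted p = 0.51). Gpx2 (NCBI Gene 14776, chr12:76792335-76795554, minus strand) had 0.280 to 0.697 CPM in KO and 0.231 to 0.402 CPM in WT. At 6 to 22 reads per library its estimate of 0.51 ± 0.32 (edgeR adjusted p = 0.369) had a 95% interval of -0.18 to 1.20.

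**Figure D4:**
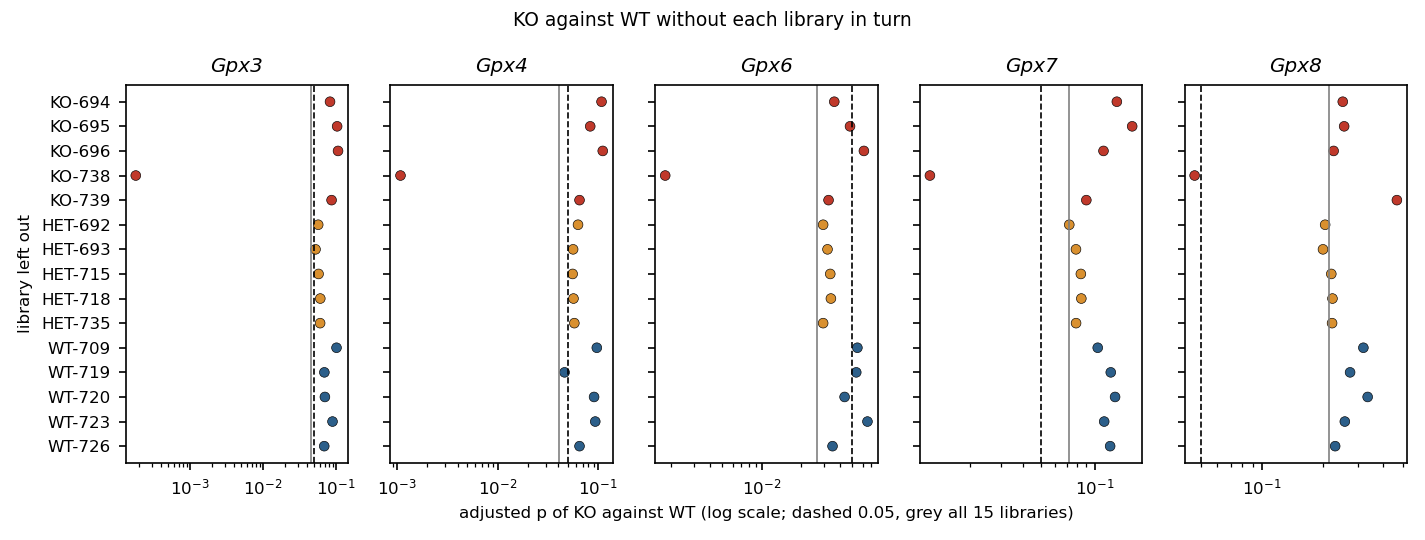
Adjusted p of KO against WT (log axis, each panel with its own range) for Gpx3, Gpx4, Gpx6, Gpx7 and Gpx8 when the library named on the left was left out. The dashed line is 0.05 and the grey line the value with all 15 libraries. The point for KO-738 is the lowest in all 5 panels, from 0.000181 for Gpx3 to 0.0463 for Gpx8.

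Between HET and WT, 0 of the 8 members passed in edgeR, where 0% of all genes passed. None of the 8 had an unadjusted p under 0.05 in edgeR, 1 had in DESeq2 and 2 had in limma voom. DESeq2 called 0 members and 1 gene, while limma voom called 0 members and 0 genes. Among all genes 854 had an unadjusted p under 0.05 in edgeR, 938 in DESeq2 and 2509 in limma voom. Among the members the smallest unadjusted p in edgeR was that of Gpx5 (0.0609), which had 27200, 29920, 26440, 31460 and 27790 CPM in HET-692, HET-693, HET-715, HET-718 and HET-735 and the WT values given above. The HET range of 26440 to 31460 met the WT range of 22840 to 27230 at its top (log2 fold change 0.20 ± 0.10 (SE), edgeR adjusted p = 0.981). Gpx6 had a median of 53.1 CPM in HET (48.9 to 68.1) and of 45.8 CPM in WT (32.7 to 53.0), with a log2 fold change of 0.35 ± 0.22 (95% interval -0.12 to 0.83, edgeR adjusted p = 0.981). Gpx3 had a median of 3046 CPM in HET (2428 to 3365) and of 3140 CPM in WT (3023 to 3845), with -0.16 ± 0.19 (95% interval -0.55 to 0.24, adjusted p = 0.993). The HET libraries of Gpx4 (135.3 to 148.4 CPM) all lay inside the WT range (130.6 to 154.9 CPM), with -0.05 ± 0.08 (95% interval -0.21 to 0.11, adjusted p = 0.999). The intervals of Gpx3, Gpx4 and Gpx6 did not reach their KO against WT estimates of -0.67, -0.28 and 0.97. Those estimates have errors of their own and share the WT libraries, so this does not test KO against HET. The direct tests, given below, did not pass for these genes in edgeR. The other members overlapped too. In CPM, Gpx1 had 71.0 to 94.7 in HET and 70.5 to 94.0 in WT, Gpx2 had 0.177 to 0.603 in HET and 0.231 to 0.402 in WT, Gpx7 had 5.77 to 7.39 in HET and 5.69 to 6.42 in WT, and Gpx8 had 101.0 to 119.4 in HET and 90.3 to 102.9 in WT. These 4 had log2 fold changes between -0.13 (Gpx2) and 0.13 (Gpx7 and Gpx8), with adjusted p from 0.981 to 0.999.

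Between KO and HET, again 0 of the 8 members passed in edgeR, while 1.97% of all genes did (1.61% higher and 0.351% lower in KO). Of the 8, 3 had an unadjusted p under 0.05 in edgeR, DESeq2 called 0, and limma voom called 3 (Gpx1, Gpx3 and Gpx4). Of all 19388 genes tested in edgeR, 4019 had an unadjusted p under 0.05. DESeq2 called 1258 genes and limma voom 1909. Gpx3 had a log2 fold change of -0.52 ± 0.19 (edgeR adjusted p = 0.13), Gpx4 of -0.23 ± 0.08 (adjusted p = 0.11) and Gpx6 of 0.61 ± 0.22 (adjusted p = 0.133). Without KO-738 these 3 passed, with -0.77 for Gpx3 (adjusted p = 0.00126), -0.30 for Gpx4 (adjusted p = 0.00524) and 0.77 for Gpx6 (adjusted p = 0.0189). In that fit 2443 of 19539 genes passed. The estimate for Gpx5 was -0.05 ± 0.10 (95% interval -0.27 to 0.16, adjusted p = 0.814), and that for Gpx8 was 0.06 ± 0.09 (adjusted p = 0.778). Gpx1 had 0.25 ± 0.12 (adjusted p = 0.241), Gpx2 0.64 ± 0.32 (adjusted p = 0.276) and Gpx7 0.22 ± 0.11 (adjusted p = 0.282). These comparisons share libraries with each other, so their values are not independent. On the log2 scale the HET mean lay between the KO and WT means for 5 members (Gpx3, Gpx4, Gpx6, Gpx7 and Gpx8), as it did for 43.5% of all genes.

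The animal numbers, whose meaning the labels do not give, divide unevenly between the groups. KO-694, KO-695, KO-696, HET-692 and HET-693 are numbered below 700, and all WT libraries above it. Among animals above 700 the KO group holds only KO-738, inside the WT range for all 8 members, and KO-739, inside it for 1. Within those animals KO against WT gave -0.34 for Gpx3 (edgeR adjusted p = 0.447), -0.14 for Gpx4 (adjusted p = 0.475) and 1.15 for Gpx6 (adjusted p = 0.214), and 0 members and 0 genes passed. With the number range as a term in the fit of 15 libraries the values were -0.44 for Gpx3 (adjusted p = 0.223), -0.20 for Gpx4 (adjusted p = 0.227) and 1.09 for Gpx6 (adjusted p = 0.0712). Then 0 members and 176 genes passed. Since all WT libraries lie on 1 side of the range, this term is estimated from KO and HET libraries only.

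Across the 15 libraries, which the genes share, Gpx3 and Gpx4 moved together. The Pearson correlation of their log2 CPM was 0.91 (Spearman 0.81), and 0.79 after the mean of each genotype was taken out. Gpx3 ran against Gpx6 (Pearson -0.76, Spearman -0.75, and -0.49 within genotypes) and Gpx7 (Pearson -0.75, Spearman -0.56, and -0.51 within genotypes). Gpx6 and Gpx8 ran together (Pearson 0.71, Spearman 0.61, and 0.64 within genotypes). Gpx1 and Gpx7 had a Pearson value of 0.61 both overall and within genotypes, but a Spearman value of 0.40. KO-739 was the highest of the 15 libraries for both Gpx6 and Gpx8, and KO-695 for both Gpx1 and Gpx7. The largest Pearson value of Gpx5 was that with Gpx4 (-0.45, Spearman -0.54, and -0.53 within genotypes), followed by Gpx3 (-0.41, Spearman -0.51, and -0.43 within genotypes). With its neighbour Gpx6 the 3 measures differed in sign (Pearson 0.10, Spearman 0.42, and -0.26 within genotypes).

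Genes with a mean of at least 1 CPM were ranked by Pearson correlation of their log2 CPM with each member over the 15 libraries. Genes with Gm, LOC or Rik symbols, pseudogenes with a -ps symbol such as Gpx4-ps2, and unnamed IDs were left out. Genotype means were not taken out, and the highest values among so many genes are high partly by selection. The genes most like each member are named with their Pearson values. For Gpx3 they were Foxred2, a reductase of the endoplasmic reticulum (0.98), Serpina16, a serpin (0.97), and Wfdc16, a whey acidic protein family member (0.97). For Gpx4 they were Ramp1, which encodes a receptor partner for calcitonin family peptides (0.96), Entpd6, a nucleotidase (0.95), and Klk1b27, a kallikrein (0.94). For Gpx5 they included the cystatin gene Cst11 (0.86) and the epididymal lipocalin gene Lcn8 (0.85). For Gpx6 they were Aspn, which encodes the matrix protein asporin (0.94), Slfn5, a schlafen family member (0.94), and Cyria (0.92). For Gpx7 they were Cenpi, of the centromere (0.92), Anln, which encodes the cytokinesis protein anillin (0.90), and Ect2, of cytokinesis too (0.90). For Gpx8 they were Mfap5, of elastic microfibrils (0.93), Ppp2r5c, a phosphatase subunit (0.92), and Gal3st4, a sulphotransferase (0.92). For Gpx1 they were Ngfr, a neurotrophin receptor (0.93), Palm (0.93) and Cenpm (0.93), and for the scarcely read Gpx2 they were Tma16 (0.92), Scn1a (0.87) and Exoc3 (0.84).

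Markers of other cells differed between KO and WT as well. Of 12 fibroblast markers 10 were higher in KO than in WT (median log2 fold change 0.83, beside -0.01 over all genes tested), with a summed level of 3094, 3447, 3951, 2211 and 3893 CPM in KO-694, KO-695, KO-696, KO-738 and KO-739, against 1990 to 2447 in HET and 1805 to 2266 in WT. KO-738 was again inside the WT range and the other 4 KO libraries above it. Sparc, which encodes a matrix glycoprotein, had a log2 fold change of 0.76 ± 0.11 (edgeR adjusted p = 0.00343), and the collagen chains Col6a3, Col6a1 and Col1a2 had 1.03 ± 0.17 (adjusted p = 0.00491), 0.86 ± 0.16 (adjusted p = 0.00835) and 0.91 ± 0.17 (adjusted p = 0.00835). Of 10 endothelial markers 9 were higher in KO (median 0.72, summed level 196.4 to 272.4 CPM in KO, 130.5 to 177.4 in HET and 120.3 to 153.8 in WT). Here KO-738, at 196.4 CPM, was the lowest KO library and yet above every HET and WT library. The cadherin gene Cdh5 had 0.85 ± 0.12 (adjusted p = 0.00335), Mmrn2, a multimerin, 0.75 ± 0.11 (adjusted p = 0.00343), the von Willebrand factor gene Vwf 0.54 ± 0.09 (adjusted p = 0.00456) and Robo4, a guidance receptor of vessels, 0.74 ± 0.12 (adjusted p = 0.00491). Of 10 macrophage markers 7 were higher (median 0.59, summed level 128.2 to 218 CPM in KO, 123.8 to 141.9 in HET and 104.8 to 128.8 in WT), and KO-738, at 128.2 CPM, was the only KO library inside the WT range. Cx3cr1, a chemokine receptor, had 0.64 ± 0.10 (adjusted p = 0.00453), the growth factor receptor Csf1r 0.65 ± 0.11 (adjusted p = 0.00594), the protease gene Ctss 0.52 ± 0.10 (adjusted p = 0.00917) and the lysozyme gene Lyz2 1.01 ± 0.19 (adjusted p = 0.01). Of 14 markers of the corpus, cauda and vas deferens, 2 were higher and 3 lower in KO (median -0.17), and the sum was 28800, 20390, 22250, 36220 and 25610 CPM in KO-694, KO-695, KO-696, KO-738 and KO-739, against 28310 to 37120 in HET and 30520 to 36710 in WT. The uroplakin gene Upk1b (0.58 ± 0.10, adjusted p = 0.00664) and the keratin gene Krt20 (1.68 ± 0.32, adjusted p = 0.00856) were higher, and the carbonic anhydrase gene Car4 (-0.63 ± 0.16, adjusted p = 0.032) and the anion exchanger gene Slc26a3 (-0.35 ± 0.10, adjusted p = 0.0476) were among the lower ones.

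The log2 of the summed CPM of each list was set beside the log2 CPM of the members over the same 15 libraries. Genotype means were not taken out here, so differences between the genotypes enter these correlations. Gpx3 had Pearson correlations of -0.92 with fibroblast markers (Spearman -0.80), -0.89 with macrophage markers (Spearman -0.71) and 0.84 with those of the corpus, cauda and vas deferens (Spearman 0.57). Gpx4 had -0.85 with fibroblast (Spearman -0.61) and -0.83 with macrophage markers (Spearman -0.65). Gpx6 had 0.80 with fibroblast (Spearman 0.60) and 0.83 with endothelial markers (Spearman 0.67). Gpx7 had -0.83 with markers of the corpus, cauda and vas deferens (Spearman -0.84) and -0.80 with the 12 epididymal markers (Spearman -0.71). It had 0.79 with macrophage (Spearman 0.53), 0.71 with fibroblast (Spearman 0.51) and 0.71 with germ cell markers (Spearman 0.79). Crisp1 belongs to both the epididymal list and that of the corpus, cauda and vas deferens. At means of 21190 CPM in KO and 28800 CPM in WT it made up most of the latter sum, so values with that list largely reflect 1 gene. Gpx5 was nearest to the 18 markers of the initial segment and caput (Pearson 0.59, Spearman 0.55), of which 0 passed the test (41460 to 50340 CPM in KO and 41810 to 47840 CPM in WT), with the lipocalin gene Lcn2 nearest at 0.29 ± 0.14 (adjusted p = 0.203). The part of these cells in the results for Gpx3, Gpx4, Gpx6 and Gpx7 was not tested. None of the markers was at 0 in all libraries.

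**Figure D5:**
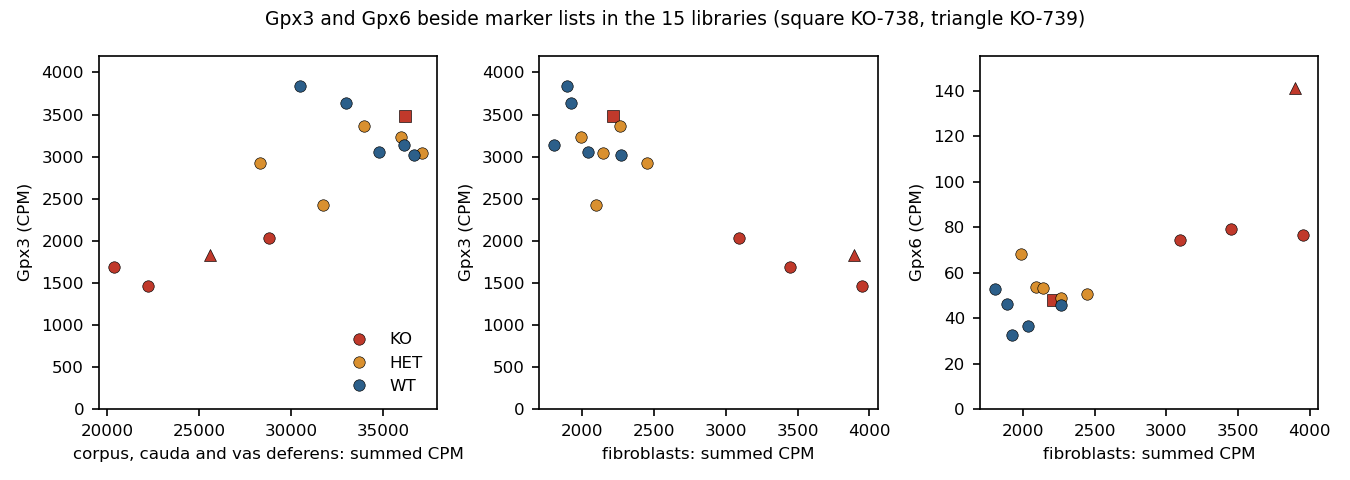
Gpx3 against the summed CPM of markers of the corpus, cauda and vas deferens (left) and of fibroblasts (middle), and Gpx6 against those of fibroblasts (right), with 1 point per library, KO-738 as a square and KO-739 as a triangle. The 4 KO libraries other than KO-738 lie at 3094 CPM or more of fibroblast markers, and all HET and WT libraries at 2447 or less. Most of the sum in the left panel is Crisp1.

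Fewer markers passed in the other lists. Of the 12 epididymal markers described at the start Crisp1 was nearest to the threshold, at 21190 CPM in KO and 28800 CPM in WT (-0.44 ± 0.16, adjusted p = 0.113). Of 17 germ cell markers 16 were tested and 4 were higher in KO (median 1.19, summed level 127.5 to 410.5 CPM in KO and 121.2 to 206 CPM in WT), with KO-738 the lowest KO library, and Gpx4 is also a transcript of spermatids. They were the germ cell helicase gene Ddx4 (1.95 ± 0.45, adjusted p = 0.0261), the fatty acid binding protein gene Fabp9 (1.72 ± 0.40, adjusted p = 0.0262), Akap3, of the sperm tail (1.89 ± 0.46, adjusted p = 0.0301), and the sperm lactate dehydrogenase gene Ldhc (1.70 ± 0.42, adjusted p = 0.0331). Gpx4 had a Pearson correlation of -0.74 with the summed germ cell markers (Spearman -0.55), with genotype means not taken out. The part of germ cells in the level of Gpx4 was not tested. Of 8 clear cell markers 6 were tested and 2 were lower in KO (median -0.11, summed level 233.6 to 284.4 CPM in KO and 272.9 to 288.8 CPM in WT). They were the proton pump subunit gene Atp6v1c2 (-0.53 ± 0.13, adjusted p = 0.0316) and the transcription factor gene Dmrt2 (-0.33 ± 0.09, adjusted p = 0.0331). Of 10 adipocyte markers (median 2.08) 1 was higher, Lpl, which encodes lipoprotein lipase, with 2.03 ± 0.42 (adjusted p = 0.0182), and the sums were 35.8 to 299.7 CPM in KO and 23.0 to 67.3 CPM in WT. Of 8 markers of the ciliated efferent duct (median 0.36) 2 were higher, Fam183b (0.98 ± 0.26, adjusted p = 0.0379) and the tektin gene Tekt1 (1.07 ± 0.30, adjusted p = 0.0493). Of 8 smooth muscle (median 0.12) and 7 basal cell markers (median 0.15), 0 passed in edgeR, with Myocd (0.27 ± 0.11, adjusted p = 0.143) and Itga6 (0.23 ± 0.07, adjusted p = 0.0715) nearest. Nor did any of the 9 skeletal muscle markers tested, whose median of 5.68 comes with the level of KO-739 given above and of which the actinin gene Actn3 was nearest (4.41 ± 1.30, adjusted p = 0.0637).

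Genes that serve the peroxidases were set beside the 6% of all genes that passed between KO and WT, and nothing particular to these lists is read from their counts. Glutathione is made by glutamate cysteine ligase and glutathione synthase and recycled by glutathione reductase, and of 13 genes of glutathione supply 0 passed in edgeR. The nearest to the threshold was Ggt5, a gamma-glutamyl transferase, with 0.48 ± 0.18 (adjusted p = 0.116). The median log2 fold change of the list was -0.08, beside -0.01 over all genes tested. Of 11 genes of NADPH supply, which feeds glutathione reductase, 0 passed (median -0.04), and Nadk, the NAD kinase, was nearest with -0.11 ± 0.04 (adjusted p = 0.128).

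Selenium reaches the selenocysteine enzymes through selenoprotein P and its receptors, and UGA is read by a set of dedicated factors. Of 12 such genes 0 passed in edgeR (median -0.10). Lrp2, which encodes megalin, a receptor for selenoprotein P, had 193.3 ± 59.6 CPM in KO and 266.6 ± 22.4 CPM in WT, with -0.46 ± 0.14 (adjusted p = 0.0684). The summed level of this list had a Pearson correlation of 0.83 with Gpx3 over the 15 libraries (Spearman 0.84), with genotype means not taken out. For the other selenocysteine members it was 0.69 with Gpx4 (Spearman 0.59), -0.62 with Gpx1 (Spearman -0.57) and -0.21 with Gpx2 (Spearman -0.30). Of 18 other selenoprotein genes 17 were tested, with 1 higher and 1 lower in KO (median -0.02). Selenov was higher with 1.48 ± 0.77 CPM in KO and 0.678 ± 0.107 CPM in WT (1.14 ± 0.32, adjusted p = 0.0437), and Selenoo, a mitochondrial pseudokinase, was lower with 20.8 ± 1.3 CPM in KO and 24.3 ± 1.3 CPM in WT (-0.23 ± 0.06, adjusted p = 0.0304).

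Of 10 catalase, peroxiredoxin and superoxide dismutase genes 1 passed (median 0.02). It was Sod3, the secreted superoxide dismutase, with 13.5 ± 3.4 CPM in KO and 9.08 ± 1.52 CPM in WT (0.57 ± 0.16, adjusted p = 0.0414). Of 11 genes of peroxide-producing oxidases 7 were tested and 1 was higher in KO (median 0.16). It was Aox1, an aldehyde oxidase, with 13.4 ± 1.6 CPM in KO and 10.5 ± 1.4 CPM in WT (0.35 ± 0.10, adjusted p = 0.0466). Of 12 genes of oxidative protein folding, in which GPX7 and GPX8 take part, 0 passed in edgeR (median -0.05), with the chaperone gene Hspa5 nearest at -0.15 ± 0.06 (adjusted p = 0.171). Of 12 genes of lipid peroxide handling, the field of GPX4, 11 were tested and 0 passed (median -0.04). The nearest was Acsl4, which activates the polyunsaturated fatty acids that peroxidise, with -0.25 ± 0.08 (adjusted p = 0.0654). Of 11 genes of the NRF2 response to oxidants 0 passed (median -0.09), with the haem oxygenase gene Hmox1 nearest at 0.45 ± 0.15 (adjusted p = 0.0841). In HET against WT, 0 genes of these 9 lists passed in edgeR.

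Apart from the pair Gpx5 and Gpx6, which are neighbours, no tested protein-coding gene next to a member on the chromosome passed in KO against WT. Genes of other kinds that lie nearer were not examined. Tnip1 lies 399 bases from Gpx3 and had 52.9 CPM in KO and 59.9 CPM in WT (-0.18 ± 0.09, edgeR adjusted p = 0.256), and Hint1 on the other side had -0.01 ± 0.06 (adjusted p = 0.921). The neighbours of Gpx4, Polr2e and Sbno2, had -0.10 ± 0.13 (adjusted p = 0.7) and -0.09 ± 0.15 (adjusted p = 0.748). The nearest protein-coding neighbour of Gpx5 other than Gpx6 was Trim27, with -0.09 ± 0.04 (adjusted p = 0.149). The other tested neighbours, Rhoa and Usp4 of Gpx1, Churc1 and Rab15 of Gpx2, Tut4 of Gpx7 and Mcidas of Gpx8, had log2 fold changes between -0.22 and 0.09, and none passed. A further 3 (Olfr1367, Shisal2a and Gzma) had too few reads to be tested.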

How the data were processed

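Whole epididymis RNA of 15 mice was measured, with 1 library per animal. The deposited values are raw counts per NCBI Gene ID. Per the submitters' processing notes, GRCm38.p6 was the genome build, and the tools named are FastQC, the aligner HISAT2 2.0.5, featureCounts and Subread 1.4.6p5. The strand setting, the handling of reads with several matches and the annotation release are not given in the sources used here. Gpx6, Gpx7 and Gpx8 overlap other annotated genes (Gm11270, Gm32297 and Cdc20b), so without the strand setting their counts carry that uncertainty. Of 41591 IDs, 40290 (96.9%) were named through a RefSeq table of GRCm38.p6, which also gave gene positions, and 87 through GENCODE. Of 254 list genes, 1 was matched by a synonym. Coding sequences and exon lengths came from GENCODE transcripts of GRCm38.

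The deposited counts were tested without further change in edgeR 4.0.16 in R 4.3.3 (TMM scaling, filterByExpr by genotype, robust quasi-likelihood F test, two-sided) in 1 fit of all 15 libraries with 12 residual degrees of freedom. Adjusted p-values follow Benjamini-Hochberg across the 19388 tested genes (threshold 0.05), and errors of log2 fold changes are SE. The biological coefficient of variation was 16.3%. CPM are counts over the TMM-scaled library size in M. Labels do not say whether animals shared litters or cages, and the tests set differences between genotypes against the spread between these animals. Members, lists and alternatives were chosen with earlier results of these data known. For KO against WT, the text names from each list all genes that passed where there were 4 or fewer, otherwise up to 4 with the smallest p, and where 0 passed the 1 with the smallest p.

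Alternatives were RLE factors, TMM without the 20 most abundant genes, DESeq2 1.42.0, limma 3.58.1 voom with quality weights, no filter, a filter of 1 CPM in 5 libraries, a fit of the compared groups only, a term for the range of animal numbers or only animals of 1 range, leaving out libraries with over 1% ribosomal RNA, and leaving out each library. Gpx4 with its pseudogene, and leaving out KO-738 and KO-739 together, were added after seeing the data. Python 3.11.15, pandas 2.3.3, Biopython 1.88 and matplotlib 3.10.9 were used for tables, alignments and plots. A gene among those most like the members is not reported here.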

Additional observations from a re-analysis of the deposited data

Results flagged for a closer look

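In each genotype, the gap between the highest or lowest library of a member and its nearest neighbour was compared with the range of the group. Of 24 groups, 2 had a library farther out than Dixon's 95% limit of 0.71, and chance alone would flag about 1 group in 20. One was Gpx3 in KO, where KO-738 had 3478 CPM and the other 4 KO libraries 1462 to 2029 CPM. The other was Gpx6 in HET, where HET-735 had 68.06 CPM and the other 4 HET libraries 48.9 to 53.6 CPM. HET-735 was inside the WT range for 5 of the 8 members, and KO-738 for 8 of 8.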

How the results depend on the processing

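No result reversed its called direction. For KO against WT, 3 members and 1163 genes passed in the reported fit. The members that passed were 0 with no filter on low counts, 0 in a fit of the compared groups only, 0 with the animal number range as a term, 0 among animals numbered 700 and above, and 5 without the libraries over 1% ribosomal RNA. The genes that passed were 1982 with DESeq2, 287 in a fit of the compared groups, 176 with the number range as a term, 0 among animals numbered 700 and above, 2722 without the libraries over 1% ribosomal RNA and 3265 without KO-738 and KO-739. Without each library in turn, 0 to 5 members and 318 (without KO-696) to 2923 genes (without KO-738) passed. With no filter the adjusted p was 0.111 for Gpx3, 0.0587 for Gpx4 and 0.0539 for Gpx6, with log2 fold changes of -0.66, -0.27 and 0.97. For HET against WT, 0 members passed under every alternative, and genes passed only with DESeq2 (1 gene). For KO against HET, 0 members and 381 genes passed in the reported fit. Members that passed were 3 with limma voom and 3 without the libraries over 1% ribosomal RNA, and 0 to 3 without each library in turn. Genes that passed were 1258 with DESeq2, 1909 with limma voom, 0 in a fit of the compared groups, 0 among animals numbered 700 and above, 1660 without the libraries over 1% ribosomal RNA, and 0 (without HET-735) to 2443 (without KO-738) without each library in turn. The causes were not tested. RLE factors and TMM without the 20 most abundant genes left the same 3 members called in KO against WT. No paired analysis was possible because the animal numbers differ in every library and none is shared between genotypes.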
